A study of Mus musculus with 18 samples.

Results

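Gene-desert peaks are stretches of open chromatin that lie far from any gene known to encode a protein. They were taken from a merged list of ATAC-seq peaks of mouse embryonic stem cells by a rule on position: the peak lies on an autosome and its midpoint is over 250 kb from the body of every protein-coding gene of GRCm38. The rule selected 9890 of 160099 autosomal peaks, which is 6.18%, and of 166066 peaks in all. ATAC-seq uses a transposase that cuts and tags accessible DNA, and a peak marks a stretch where cuts pile up.

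The study followed embryonic stem cells of 1 line, named dTKO, over a course in which histone H3 lysine 9 methyltransferases were removed. The line's genotype is given as Suv39h1fl/fl; Suv39h2-/-; Setdb1fl/fl, so the Suv39h2 deletion and both floxed alleles are shared by every group. Auxin (100 µg/ml) and dTAG13 (0.5 µM), small molecules used to trigger degradation of tagged proteins, were added, and cells were taken at 0, 3, 6, 12, 24 and 48 h, with 3 libraries each and 18 libraries in all. The merged list holds peak positions only, so depth per library is unknown, and no peak can be assigned to a time. All values below therefore describe the pooled list, with 95% intervals that cover counting error only, and no comparison between times was possible. In the list, 27 of 29 autosomal genes of the pluripotency network had a peak within 500 bp of an annotated end, including Sox2, Klf4 and Tbx3, beside 72.8% of all autosomal protein-coding genes.

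Gene deserts are long stretches of chromosome without protein-coding genes, and many lie beside genes that control development or nerve cell contact. They can hold enhancers, which act on a promoter from a distance, and also genes for noncoding RNA. These include long noncoding RNAs (lncRNAs) and microRNAs (miRNAs), short RNAs that pair with messenger RNAs mainly through a seed at bases 2 to 8. Desert DNA is often rich in repeats and in compact chromatin, where methylated H3 lysine 9 is a common mark.

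The sequences shown are of 2 kinds, promoters of desert lncRNAs that a peak covers and mature miRNAs of desert clusters, from genes with and without a peak. Promoter windows run from 250 bases before to 50 after a transcript start and come from RefSeq on GRCm38.p6. Of the windows of desert lncRNAs that a peak covered completely, 1 per gene and 30 in all, the 3 richest in CG dinucleotides and 1 of the 2 poorest are shown, each 5′ to 3′ on the strand of the gene, with CG in capitals.
Gm42298 promoter: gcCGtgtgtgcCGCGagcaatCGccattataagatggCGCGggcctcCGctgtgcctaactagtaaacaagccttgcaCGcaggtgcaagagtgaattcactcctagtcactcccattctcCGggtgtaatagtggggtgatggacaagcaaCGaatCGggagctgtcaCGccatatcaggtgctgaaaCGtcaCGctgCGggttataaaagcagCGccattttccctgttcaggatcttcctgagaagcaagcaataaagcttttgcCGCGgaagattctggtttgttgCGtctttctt
Gm34581 promoter: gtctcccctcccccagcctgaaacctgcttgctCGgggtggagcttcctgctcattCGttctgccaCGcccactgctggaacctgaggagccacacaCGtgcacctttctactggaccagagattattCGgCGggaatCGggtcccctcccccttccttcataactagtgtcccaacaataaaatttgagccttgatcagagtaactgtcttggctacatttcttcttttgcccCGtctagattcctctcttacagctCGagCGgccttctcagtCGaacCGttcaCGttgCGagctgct
Gm34297 promoter: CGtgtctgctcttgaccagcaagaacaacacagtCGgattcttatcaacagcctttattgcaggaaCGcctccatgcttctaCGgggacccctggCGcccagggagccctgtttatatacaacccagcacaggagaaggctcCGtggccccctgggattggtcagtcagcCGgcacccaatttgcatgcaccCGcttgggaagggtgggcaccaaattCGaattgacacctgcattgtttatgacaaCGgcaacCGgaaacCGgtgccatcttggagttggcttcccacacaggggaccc
Gm38838 promoter: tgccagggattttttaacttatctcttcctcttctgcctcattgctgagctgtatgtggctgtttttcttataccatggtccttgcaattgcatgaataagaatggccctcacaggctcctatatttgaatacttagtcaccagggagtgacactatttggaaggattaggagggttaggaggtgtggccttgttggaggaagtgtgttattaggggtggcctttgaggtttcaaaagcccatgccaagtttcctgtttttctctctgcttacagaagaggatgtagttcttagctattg

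The Gm42298 window (chr4:71381719-71382018, plus strand) lay under a peak of 581 bp between Megf9 and Gm11232 and held 19 CG. The Gm34581 window (chr12:50980463-50980762, plus strand) held 14 CG and lay under a peak of 3437 bp, the fourth widest desert peak, between Prkd1 and G2e3. Gm34297 (chr10:98537238-98537537, plus strand), between Ccer1 and Atp2b1, had 12 CG under a peak of 649 bp. The Gm38838 window (chr6:81446208-81446507, minus strand), between Lrrtm4 and Gcfc2, held 0 CG, and a peak of 762 bp covered it.

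Mature miRNAs from RefSeq are shown for the miR-344 family and for the miR-100 and miR-99a clusters, because these genes sit in deserts and differ in whether a peak lies on them. Peaks lay on the genes of miR-344, miR-344b, miR-344c and miR-344h and on Mir125b-1, and on no gene of the other names. Seeds are in capitals.
miR-344-3p: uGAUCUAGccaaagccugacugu
miR-344c-3p: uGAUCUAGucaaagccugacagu
miR-344b-3p: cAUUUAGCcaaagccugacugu
miR-344h-3p: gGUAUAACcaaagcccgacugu
miR-344d-3p: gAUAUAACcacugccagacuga
miR-344e-3p: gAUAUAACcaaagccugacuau
miR-344-5p: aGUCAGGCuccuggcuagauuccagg
miR-344h-5p: cAGGCUUCuggcuauauucc
miR-100-5p: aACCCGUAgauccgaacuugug
miR-99a-5p: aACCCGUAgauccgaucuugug
miR-125b-5p: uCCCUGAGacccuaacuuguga
let-7c-5p: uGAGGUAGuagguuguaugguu

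The 3′ arms of miR-344 and miR-344c shared the seed GAUCUAG, and those of miR-344d and miR-344e shared AUAUAAC. On the 5′ side, 6 names of the miR-344 family shared the seed GUCAGGC. Outside that family, miR-100-5p and miR-99a-5p shared ACCCGUA, and the same miR-125b-5p comes from both of its genes.

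Deserts were sparsely but not emptily covered with open chromatin. The 592 deserts, meaning stretches in which every base is over 250 kb from a protein-coding gene, made up 394 Mb or 16.4% of 2403 Mb of autosomal DNA. They held 25.1 peaks per Mb (24.6 to 25.6, exact Poisson), or 1 peak per 39.8 kb. Other autosomal DNA held 74.8 peaks per Mb (74.4 to 75.1), or 1 per 13.4 kb, which is 2.98 times the desert density. Peaks covered 1.55% of desert DNA and 5.31% of the rest. Bases that are not sequenced in the assembly were not removed from either length.

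The difference was seen on each chromosome, with a lower density in deserts on 19 of 19 autosomes. The ratio of other DNA to deserts ran from 2.27 on chromosome 13 to 4.09 on chromosome 19, with a median of 2.99. Chromosome 11 had the densest deserts, at 43.2 peaks per Mb (39.9 to 46.6), and also the densest other DNA, at 116.2. The next densest deserts were those of chromosome 13 at 29.6 (27.2 to 32.3) and chromosome 8 at 29.1 (27.0 to 31.4), and their intervals overlap. Chromosome 19 had the sparsest, at 19.9 (16.4 to 23.9), from 5.69 Mb of desert.

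**Figure D1:**
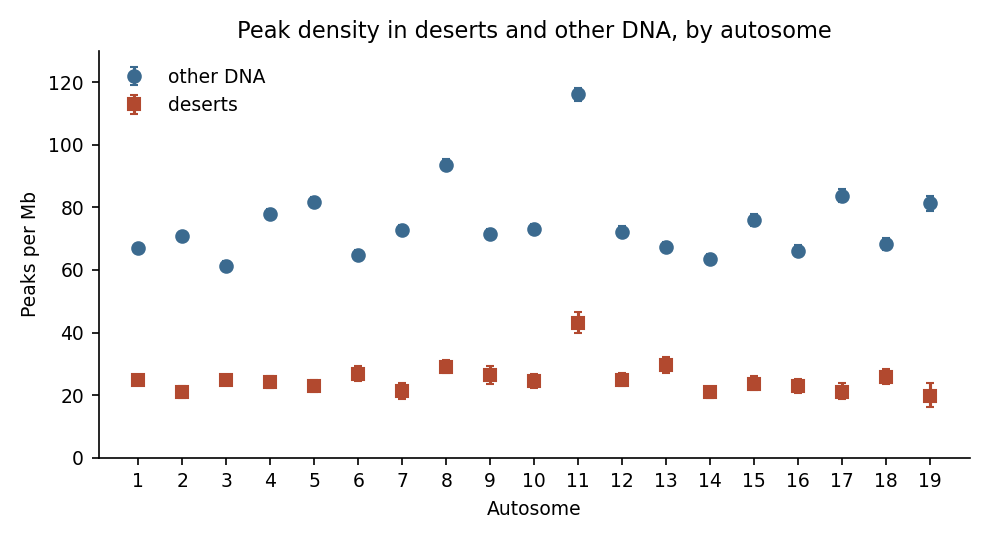
Peaks per Mb (y axis) on each autosome (x axis), in deserts (squares) and in other DNA (circles), with exact Poisson 95% intervals as bars. All 19 desert values lie below all 19 values of other DNA, and chromosome 11 is highest in both, at 43.2 and 116.2.

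Most of the decline in density with distance had taken place before the desert limit was reached. Density was 82.0 peaks per Mb inside protein-coding gene bodies, 100.1 up to 10 kb from them and 76.4 from 10 to 50 kb. It was 53.5 from 50 to 100 kb and 37.6 from 100 to 250 kb. Within deserts it was 27.8 (27.1 to 28.5) from 250 to 500 kb and 22.4 (21.6 to 23.2) from 500 to 1000 kb. Farther out it was 23.2 (21.8 to 24.6) up to 1500 kb and 22.4 (20.2 to 24.7) beyond, so that the intervals of these last 3 classes overlap.

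The gaps that hold the deserts were sparser than other DNA also next to their genes. In gaps of over 500 kb between protein-coding genes, the first 10 kb from a gene held 66.8 peaks per Mb, where all autosomal DNA at that distance held 100.1. The stretches from 10 to 50 kb, 50 to 100 kb and 100 to 250 kb held 46.0, 39.7 and 32.3. The 250 kb shoulders of these gaps together held 37.3 peaks per Mb.

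**Figure D2:**
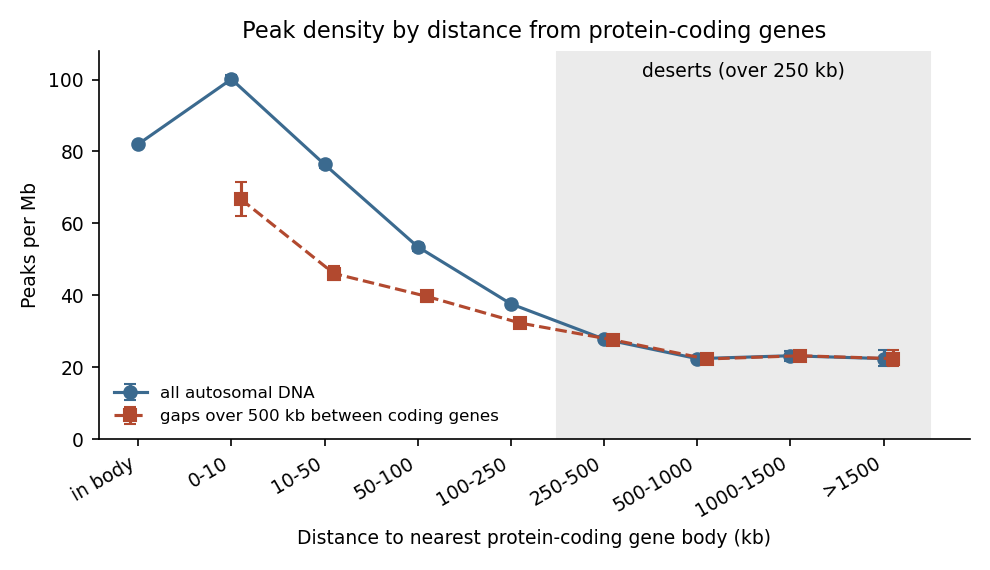
Peaks per Mb (y axis) by distance class from the nearest protein-coding gene body in kb (x axis), for all autosomal DNA (circles) and for gaps over 500 kb between coding genes (squares), with exact Poisson 95% intervals. The shaded classes are deserts, where values run from 27.8 down to 22.4.

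The median desert peak lay 470 kb from the nearest protein-coding gene, and 1511 of them lay over 1 Mb away. The farthest was 2.25 Mb from any such gene, on chromosome 18, and was 686 bp wide. The 3 nearest peaks beyond the limit lay 250.016, 250.020 and 250.054 kb from a gene and were 204, 491 and 211 bp wide. The 3 nearest within the limit lay at 249.970, 249.968 and 249.940 kb and were 654, 1031 and 314 bp wide. With 3 peaks on each side, these values cannot show whether density or width changes at the limit.

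Deserts differed widely among themselves. Their median length was 365 kb and the longest measured 4.04 Mb, 122 were over 1 Mb, and the median desert held 10 peaks. Only 22 of the 592 held no peak, the longest of them 60.1 kb. Density by length went from 35.4 peaks per Mb in deserts of up to 250 kb to 22.6 (21.8 to 23.4) in the 47 deserts of over 2 Mb. Among 246 deserts of at least 500 kb the median was 20.9, the middle 50% ran from 16.7 to 28.2, and the extremes were 3.55 and 91.8. In 3 of the 246 the density was above the 74.8 of other autosomal DNA.

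The densest of these was a desert of 0.686 Mb on chromosome 1 between Pcmtd1 and Sntg1, with 63 peaks or 91.8 per Mb (70.6 to 117). Between Igfbp3, a binding protein for insulin-like growth factors, and Tns3 on chromosome 11, 59 peaks gave 82.4 per Mb (62.7 to 106). The third was the T cell receptor alpha locus, described below, and the intervals of all 3 overlap each other and the value of other DNA. A desert of 1.29 Mb between Vrk2 and Ccdc85a on chromosome 11 followed with 95 peaks or 73.5 per Mb, and one between Plekhb2 and Hs6st1 on chromosome 1 with 59.5.

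At the other end, 2 peaks lay in 0.563 Mb between 1700017N19Rik and Mgat4c on chromosome 10, or 3.55 per Mb (0.430 to 12.8). The desert between St8sia4 and Slco4c1 held 6.17 per Mb and that between Klhl1 and Dach1, a transcription factor gene of eye and limb development, held 6.51. Those between Btbd3 and Sptlc3 and between Lmo7 and Kctd12 held 7.08 and 7.38. With 2 to 5 peaks each, the order of these 5 lies within counting error.

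There were 11 deserts with 90 or more peaks, of up to 111. Beside the antigen receptor loci they were the stretches from Slc10a2 to Efnb2 (110 peaks), Cdh2 to Dsc3 (110), Cntnap5b to Cdh20 (104), Snx16 to Ralyl (99), Tenm3 to Aga (98), Vrk2 to Ccdc85a (95), and, tied in last place, Cntn5 to Jrkl (90) and Cobl to Pom121l12 (90). Cdh2 and Cdh20 encode cadherins, which hold cells together, and Cntn5, Cntnap5b and Tenm3 encode adhesion proteins of nerve cells.

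Among the longest deserts, the first 3 had fewer peaks per Mb than the 25.1 of all deserts. From Pcdh20 to Pcdh9, a pair of protocadherin genes on chromosome 14, 4.04 Mb held 60 peaks or 14.8 per Mb (11.3 to 19.1). The 4.01 Mb from Celf4 to Pik3c3 held 70 peaks and the 3.92 Mb from Olfm4 to Pcdh17 held 68, at 17.5 and 17.3 per Mb. In the other 7 of the 10 longest, density ran from 19.1 between Zeb2 and Acvr2a to 28.1 between Tenm3 and Aga.

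**Figure D3:**
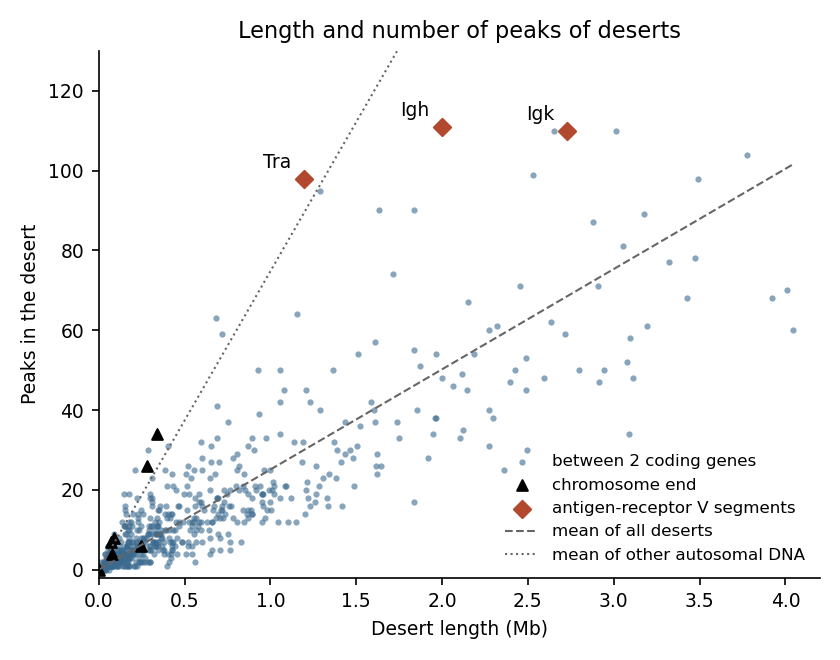
Number of peaks (y axis) against length in Mb (x axis) for each of 592 deserts, with chromosome ends as triangles and deserts of antigen receptor V segments as diamonds. The dashed and dotted lines are the mean densities of deserts and of other autosomal DNA, 25.1 and 74.8 peaks per Mb, and most long deserts lie near or under the dashed line.

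The rule also takes in 3 deserts that are full of genes of another kind. Variable (V) segments of antibodies and T cell receptors, which lymphocytes join into receptor genes, are not annotated as protein-coding, so 3 of their loci count as deserts. These held 319 peaks, 3.23% of all desert peaks, at 53.8 per Mb. The other deserts held 9571 peaks at 24.7 per Mb (24.2 to 25.2).

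The V segments of the 3 loci differed in how many had a peak within 500 bp of an annotated end, beside 27% of all autosomal V segments. At the T cell receptor alpha locus on chromosome 14, between Gm36448 and Dad1, 51 of 104 V segments had one (49.0%, Wilson 39.6 to 58.5), and the desert held 98 peaks or 82.1 per Mb (66.6 to 100.02). At the immunoglobulin heavy chain locus on chromosome 12, between Adam6a and Zfp386, 22 of 93 had one (23.7%, 16.2 to 33.2), with 111 peaks or 55.5 per Mb. At the kappa light chain locus on chromosome 6, 3 of 88 had one (3.41%, 1.17 to 9.55), with 110 peaks or 40.3 per Mb. The 3 intervals do not overlap. Neighbouring V segments are near copies of each other, so reads could be split or lost between them, and their part in these shares was not tested.

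The 7 deserts that reach a chromosome's end held 85 peaks in 1.11 Mb, or 76.8 per Mb. Their first sequenced bases adjoin the centromere, and a single gene bounds each. The stretch before Olfr161 on chromosome 16 held 34 peaks in 0.340 Mb.

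Desert peaks were narrower than others. Their median width was 512 bp (505 to 520), against 583 bp (581 to 586) for other autosomal peaks, and the median was lower in deserts on 19 of 19 autosomes. Of desert peaks, 42.5% were wider than 578 bp, the median of all peaks, against 50.5% of the others. Peaks over 2 kb made up 0.758% (0.605 to 0.949) and 1.84% (1.78 to 1.91). Width also went with distance outside deserts, from a median of 601 bp inside gene bodies and 608 bp up to 10 kb away to 523 bp from 100 to 250 kb. Inside deserts the medians by distance lay between 483 and 554 bp, with no steady order.

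The widest peak of all autosomes was a desert peak. It spanned 10001 bp (chr3:6297553-6307553), between Pex2, a peroxisome assembly gene, and 1700008P02Rik, 313 kb from the nearest protein-coding gene and 10.5 kb from the lncRNA gene Gm41989. The widest outside deserts had 7922 bp. The next widest in deserts had 5000 bp, between Tenm3 and Aga, and 4350 bp (chr7:72650401-72654750), between Mctp2 and Rgma, 1.05 kb from the pseudogene Rpl17-ps10. Of 25 autosomal peaks over 4 kb, these 3 lay in deserts.

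Among the 10 widest, 3 overlapped a noncoding gene. They were the 3437 bp peak over the start of Gm34581, a 2702 bp peak over the pseudogene Gm7718 between Cdh2 and Dsc3, and a 2593 bp peak over the lncRNA gene Gm33458 between Kcnj3 and Nr4a2. The other 7 lay 1.05 to 66.6 kb from the nearest noncoding gene, which included Gm6463, Gm3749, Gm6214, Gm17889 and Gm35397.

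Neighbouring desert peaks stood far apart, with a median gap of 20.3 kb (19.6 to 21.2) within a desert against 5.97 kb (5.93 to 6.02) elsewhere. Gaps under 1 kb made up 4.99% of desert gaps and 10.8% of others, and gaps over 100 kb made up 8.45% and 1.01%. Divided into tiles of 50 kb, deserts had on average 1.24 peaks a tile and no peak in 35.8% of 7586 tiles, against 3.75 and 13.0% elsewhere. Tiles with 5 or more peaks made up 3.01% in deserts and 34.1% elsewhere.

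**Figure D4:**
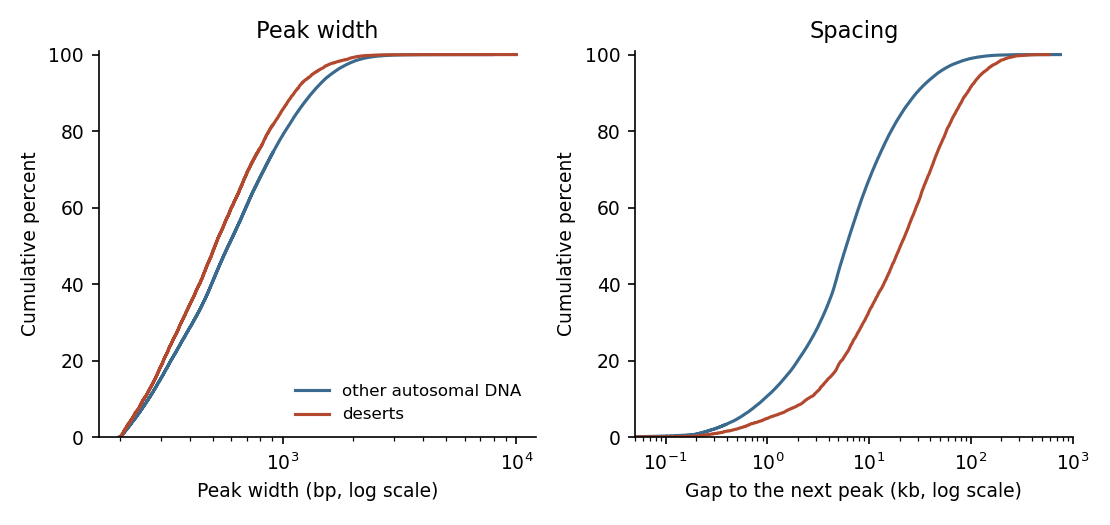
Cumulative percent of peaks by width in bp (left) and of gaps to the next peak in kb (right), both on log x axes, for deserts and other autosomal DNA. The desert curve lies to the left for width, with medians of 512 and 583 bp, and to the right for spacing, with medians of 20.3 and 5.97 kb.

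A few desert stretches were crowded. The densest 100 kb held 21 peaks (chr16:9193316-9291803), between 1810013L24Rik and Grin2a, an NMDA receptor subunit gene, with the single noncoding gene Gm41418. The next held 17 peaks (chr13:97503459-97602114), between Enc1 and Arhgef28, over Gm41030, Gm41029 and Gm5086. A stretch with 16 peaks between Plekhb2 and Hs6st1 (chr1:35193951-35287913) held 0 noncoding genes, and another with 16 lay among T cell receptor V segments. These stretches were picked for their counts, so they are a description. The longest free stretch inside a desert was 589 kb (chr3:71568305-72156881), between Otol1 and Sis, the sucrase-isomaltase gene of the gut, where 25 peaks lay in the rest of the desert. A stretch of 487 kb between Klhl1 and Dach1 came next. Outside deserts the longest gap between neighbouring peaks was longer, at 759 kb.

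The share of noncoding genes with a peak was lower in deserts than elsewhere. Of 2598 noncoding genes wholly inside deserts, 378 (14.5%, 13.2 to 16.0) had a peak within 500 bp of an annotated end. Elsewhere 35.9% (35.3 to 36.5) had one, and over all autosomal noncoding genes 33.7%. Among lncRNA genes, 149 of 838 in deserts had one (17.8%, 15.3 to 20.5), against 47.6% elsewhere and 45.6% over all. Among pseudogenes it was 112 of 983 (11.4%, 9.56 to 13.5), against 22.1% elsewhere and 21% over all. For V segments the shares were 26.7% (21.9 to 32.1) in deserts and 28.1% (19.8 to 38.2) elsewhere, with overlapping intervals, and 27% over all. Small nuclear RNA genes had one in 2 of 118 cases (1.69%), against 16.0% elsewhere and 14.2% over all, and small nucleolar RNA genes in 13 of 189 (6.88%), against 19.6% elsewhere and 17.7% over all.

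Some desert peaks sat at or in a noncoding gene. The window around an annotated noncoding end was touched by 403 of them (4.07%, 3.70 to 4.48). The same share over all autosomal peaks was not computed, so this one cannot be called low or high. These 403 had a median width of 566 bp against 510 bp for the rest, but a wider peak touches a window more easily. Bodies of noncoding genes covered 11.2% of desert DNA and held 1437 of the peaks (14.5%), or 32.5 peaks per Mb (30.8 to 34.2) against 24.2 (23.7 to 24.7) outside them. These bodies include those of the antigen receptor loci, whose deserts held 53.8 per Mb, and their part was not separated. For lncRNA bodies the densities were 27.2 (25.5 to 29.0) inside and 24.9 (24.4 to 25.4) outside, and for pseudogenes 49.8 (42.7 to 57.8) inside and 24.9 outside. Peaks over 100 kb from any gene of any type numbered 2857 (28.9%), and the most remote lay 710 kb away.

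The desert gene with the most peaks in its body was the lncRNA gene Gm32647, 1284 kb long, between Gm15501 and Tenm4, with 25. 1700019L22Rik, an lncRNA gene of 800 kb between Tenm3 and Aga, held 20, and the pseudogene Gm18728 between Cntnap5b and Cdh20 held 15. Gm34196, between Tmem161b and Ccnh, held 12. Per length, 4930554G24Rik between Cobl and Pom121l12 was the densest of the 10 genes with the most peaks, with 11 peaks or 10.3 per 100 kb, followed by Gm31870 between Camk1g and Plxna2 with 9.60. The other 4 were Gm13481, Gm12132, Gm3116 and Gm46188, with 8 or 9 peaks each.

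Of the 838 desert lncRNA genes, 8 bear a name other than a Gm or Rik code. Rmst, an RNA of nerve cell formation on chromosome 10 between Tmpo and Nedd1, held 2 peaks in its 83.4 kb body, and the peak nearest to an end, 1173 bp wide, was 1.66 kb away. The Ipw gene, from the imprinted Prader-Willi region between Ube3a and Snrpn, held 0 peaks in 59.7 kb, and the nearest lay 12.7 kb from an end. Redrum, an erythroid lncRNA, held 1 peak, and the peak nearest to an end lay 0.663 kb from it. For Urml and BC051408 the nearest lay 1.34 and 1.38 kb away. AA545190, between Nxph1 and Ndufa4, had a 1622 bp peak 0.157 kb from an end. Pinc and Spanxn4 had the nearest peak 27.1 and 18.6 kb away. These 8 genes were chosen for having names, after values were seen.

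Open promoters of desert lncRNAs held fewer CG than open promoters of other genes. The RefSeq windows overlapped a peak in 76 of 727 cases for desert lncRNAs (10.5%, 8.43 to 12.9), in 33.0% of windows of lncRNAs elsewhere, and in 31.5% over all lncRNA windows. For protein-coding genes it was 69.0%. Open windows had a median of 5 CG in desert lncRNAs (quartiles 2.75 and 8), 10 in other lncRNAs (5 and 23) and 21 in protein-coding genes (12.25 and 29), while windows without a peak had medians of 2, 3 and 2. The letters GGGCGG, on either strand, stood in 11.8% of open desert windows, 40.6% of open windows of other lncRNAs and 64.8% of open protein-coding windows. TATAAA, on either strand, stood in 18.4%, 7.97% and 6.55%. Over all windows, open or not, TATAAA stood in 13.6%. Among desert lncRNA windows without a peak it stood in 23.3%, so open desert windows did not hold it more often. In each of the other classes, too, the share was higher without a peak than with one. For desert lncRNAs the difference rests on 14 open windows with TATAAA and was not tested. GGGCGG stood in 2.92% of desert windows without a peak. The Gm42298 and Gm34297 windows printed above hold TATAAA, and none of the 4 holds GGGCGG.

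Deserts held 49 miRNA genes, in 29 deserts, and 8 of them had a peak within 500 bp of an end, against a share of 31.3% over all autosomal miRNA genes. RefSeq sequences were matched for 45. The 8 were 6 genes of the miR-344 family, Mir125b-1 and Mir6379. The median distance from a desert miRNA gene to the nearest peak was 12.9 kb, and the longest was 72.6 kb, at Mir3963 between Adgrl2 and Adgrl4.

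The miR-344 family spans 402 kb on chromosome 7 between Gm51483 and Ndn, an imprinted gene of the Prader-Willi region. It has 13 genes there, all on the minus strand. Of the 11 peaks from its first to its last gene, 6 lay on a hairpin. Hairpins make up 0.242% of that span, a share of bases that leaves out the width of the peaks. Peaks of 244 to 1239 bp touch a hairpin more easily than that share tells. The cluster was shown because its genes differ in having a peak, so these counts are a description. By gene, 6 of 13 had a peak within 500 bp of an end, beside 31.3% of all autosomal miRNA genes. The centres of the 6 peaks were 21 to 92 bp from the centre of the hairpin. The hairpins were those of Mir344h-1 (peak of 244 bp), Mir344h-2 (265 bp), Mir344b (425 bp), Mir344c (323 bp), Mir344 (1004 bp) and Mir344-2 (718 bp), 6 genes that follow each other along the cluster.

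The genes at both ends of the cluster had no such peak. Mir344d-1, Mir344d-2, Mir344d-3 and Mir344e lay 56.1, 53.9, 13.0 and 3.68 kb from the nearest one. Mir344g, Mir344f and Mir344i lay 39.2, 18.8 and 12.9 kb away. By seed of the 3′ arm, both GAUCUAG genes with the name Mir344 and the one named Mir344c had a peak, and all 4 AUAUAAC genes lacked one. Seeds of the 5′ arm did not divide in this way. GUCAGGC is shared by Mir344, Mir344b and Mir344c, with a peak, and by Mir344d-1, Mir344d-3 and Mir344g, without one. AGGCUUC is shared by miR-344h, with a peak on its genes, and miR-344e, without one. Copies of the family are alike in sequence, as the mature forms above show, so reads could have been assigned to the wrong copy or left out, and their part in this pattern was not tested. The whole desert held 14 peaks in 0.735 Mb, or 19.1 per Mb, and the lncRNA gene A230057D06Rik, which holds 7 of the miRNA genes, had 7 peaks in its body.

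The clusters that carry the related seeds of miR-100 and miR-99a differed in their peaks. On chromosome 9, within Mir100hg and between Ubash3b and Gm40514, Mir100 and Mirlet7a-2 lay 15.9 and 21.2 kb from the nearest peak, while a peak of 1320 bp touched Mir125b-1 (chr9:41581926-41582002). From 20 kb before the first of these genes to 20 kb after the last, 5 peaks lay in all. On chromosome 16, between Usp25 and Cxadr, Mir99a and Mirlet7c-1 lay 36.2 and 36.9 kb from a peak and Mir125b-2 lay 1.54 kb from one of 863 bp. Near the pluripotency gene Sox2, Mir6378 lay 2.94 kb from a peak.

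**Figure D5:**
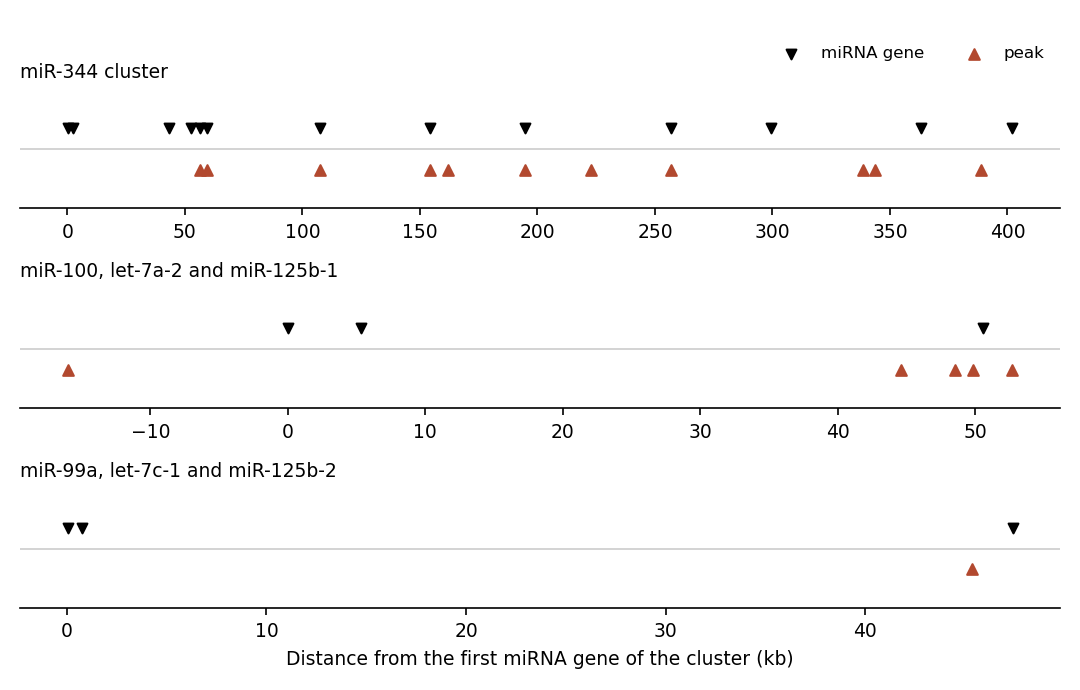
Positions of miRNA genes (triangles pointing down) and of peaks (triangles pointing up) along 3 desert clusters, in kb from the first miRNA gene. In the miR-344 cluster 6 of 11 peaks stand directly under a gene, in the miR-100 cluster 4 of 5 peaks stand near the miR-125b gene, and in the miR-99a cluster the single peak shown does.

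Genes that flank deserts were mostly open at an end. The 592 deserts are flanked by 1042 protein-coding genes, 5.07% of all 20554 on autosomes, and 136 of them flank a desert on each side. Of the 1042, 823 (79.0%, 76.4 to 81.3) had a peak within 500 bp of an annotated end, against 72.5% (71.9 to 73.1) of other protein-coding genes and 72.8% of all. Without olfactory and vomeronasal receptor genes, a choice made after values were seen, the share of other genes was 77.9% (77.3 to 78.5), and the interval of the flanking genes holds that value. Flanking genes were long, with a median of 61.3 kb against 16.8 kb.

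Where a strand was known, the 5′ end faced the desert on 450 of 891 sides (50.5%, 47.2 to 53.8). A peak lay at the facing end on 75.1% of sides with the 5′ end toward the desert and on 9.98% with the 3′ end toward it. In the latter, 76.9% had one at the far end.

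By family, the listed genes of development and of the nervous system flanked a desert more often than protein-coding genes as a whole. Of 142 developmental transcription factor genes, 72 flanked a desert (50.7%), beside 5.07% of all protein-coding genes. A peak lay at an end of 67 of these 72 and of 131 of all 142. Zeb2, Nr2f1 and Gata3 flanked deserts of 3.20, 2.18 and 1.96 Mb. Of 95 genes for neuronal adhesion and axon guidance 59 did (62.1%), among them Cntnap5b, Tenm3, Lrrc4c and Cntnap5a. Of these 59 a peak lay at 52, and of all 95 at 83. Of 33 nonclustered cadherin and protocadherin genes 19 flanked a desert (57.6%), led by Pcdh20, Pcdh9, Pcdh17 and Cdh20. A peak lay at 13 of these 19 and at 25 of all 33. Of 67 genes for neuronal channels and transmitter receptors 29 flanked a desert (43.3%), led by Grik2, Kcnt2, Kcnv1 and Kcnd2. These lists were drawn up knowing that such genes often border deserts, so the shares are not independent evidence of it.

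Signalling ligands and antagonists flanked a desert in 13 of 68 cases (19.1%), among them Jag1, Fgf9, Gdf6 and Bmp2. Pluripotency genes did in 5 of 29 (17.2%), with a peak at all 5 of these and at 27 of the 29. Sox2, which keeps stem cells undifferentiated, bordered 2 deserts, one of 0.602 Mb with 25 peaks, or 41.6 per Mb, and one of 0.0686 Mb on its other side, toward Dnajc19, with 1 peak. Tbx3 bordered one of 0.405 Mb with 14 peaks, or 34.6 per Mb. Klf4 bordered one of 0.708 Mb with 8 peaks, or 11.3 per Mb. Zfp genes did in 14 of 388 cases (3.61%), among them Zfp386, Zfp608, Zfp804a and Zfp462, and ribosomal protein genes in 4 of 83 (4.82%), namely Rps29, Rpl10l, Rps24 and Rpl38. Olfactory receptor genes did in 2 of 1103 cases, vomeronasal receptor genes in 0 of 351 and housekeeping genes in 0 of 18.

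Deserts grouped by the families at their borders differed in peak density. Those beside developmental transcription factors held 26.4 peaks per Mb (24.8 to 28.0), beside cadherins 22.8 (21.5 to 24.2), beside neuronal adhesion genes 21.2 (20.3 to 22.2) and beside channels 24.5 (22.5 to 26.5). All deserts together held 25.1. The interval of the transcription factor deserts lies above those of the cadherin and adhesion deserts. These intervals cover counting error only. The variance of counts per 50 kb tile of desert was 1.53 times their mean, more than counting error allows for. These classes were not matched for desert length, and short deserts were denser. Among those of at least 500 kb, the medians of these 3 classes were 21.1, 21.6 and 18.9 per Mb, from 27, 19 and 52 deserts. There the transcription factor deserts did not exceed the cadherin deserts. Deserts beside Zfp genes, which include the immunoglobulin heavy chain locus, held 36.1 (32.1 to 40.5), and the 2 beside olfactory receptor genes, 1 of them at a chromosome end, held 92.5 (64.0 to 129) from 34 peaks. Deserts beside signalling ligands held 23.5 (18.7 to 29.0) and beside ribosomal protein genes 28.2 (22.1 to 35.5). Deserts beside pluripotency genes held 27.6 (20.9 to 35.9), and these last 3 intervals hold the value of all deserts. A desert can stand in more than 1 of these classes.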

How the data were processed

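ATAC-seq was done on 18 libraries, 3 at each of 6 times. The submitters' processing notes name MACS2 2.2.7.1, Bowtie2 2.4.2 and Trimmomatic 0.36, without their roles, and mm10 or GRCm38. Merging and thresholds: not given in the sources used here. The authors deposited positions of 166066 merged peaks, with no other value, so samples could not be compared, and 0 columns of sample values went unused.

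Gene positions came from a RefSeq table of GRCm38.p6, from which 46705 autosomal genes were kept. Left out were 333 with coordinates of scaffolds or patches and 4 without coordinates. Deserts were counted from the first to the last annotated gene or peak of each autosome. Intervals are 95%: exact Poisson for densities, Wilson for shares and order statistics for medians. Python 3.11.15, numpy 2.4.6, pandas 2.3.3 and scipy 1.17.1 were used, and the assignment was tested on simulated data.

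Members and gene lists were chosen with earlier results of these data known. Deserts named were the 10 with most peaks, the 10 longest and, of at least 500 kb, the 5 densest and 5 sparsest. Genes named were their flanks, the noncoding genes nearest the 10 widest peaks, the 10 with most peaks, miRNA genes, and up to 4 per list at the longest deserts. Some genes that this rule names are not reported here. Named lncRNA genes and the crowded and free stretches were added after values were seen.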

Additional observations from a re-analysis of the deposited data

Results flagged for a closer look

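Peaks of the X chromosome lie outside the autosomal rule and enter no comparison above. Measured in the same way, 54 deserts of X held 486 peaks in 29.1 Mb, or 16.7 per Mb (15.3 to 18.3, exact Poisson), with a median width of 536 bp. Other DNA of X held 35.1 per Mb (34.1 to 36.1), below the 61.4 of chromosome 3, the sparsest autosome in other DNA. The low density of X was thus not particular to its deserts. The 16.7 peaks per Mb of X deserts lie below the 19.9 of chromosome 19, the sparsest autosome in deserts, whose interval of 16.4 to 23.9 overlaps that of X. The list gives no value per library, so the 0 h libraries could not serve as a baseline.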

How the results depend on the processing

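Deserts stayed sparser than other autosomal DNA under all 8 alternatives tried, by 2.67 to 3.54 times. A limit of 100 kb gave 19809 peaks at 30.1 per Mb with a median spacing of 15.7 kb. A limit of 500 kb gave 4559 peaks at 22.6 per Mb, a median width of 502 bp and a spacing of 23.3 kb. With only peaks wider than the median of all peaks, deserts held 4199 at 10.7 per Mb, with a median width of 849 bp and a spacing of 42.5 kb, and the shares of genes with a peak were 7.24% for noncoding desert genes and 73.6% for flanking genes. Without predicted protein-coding models, density was 26.8 per Mb and spacing 18.1 kb. With genes of any type in place of protein-coding genes, 733 peaks remained in the stretches left, at 21.4 per Mb. Windows of 250 bp around gene ends gave 12.6% and 76.2%, and windows of 2000 bp gave 23.4% and 85.7%. Each of these settings takes in different DNA, genes or peaks, and why each value shifted was not tested. Requiring the whole peak beyond the limit, only deserts with a gene on both sides, or, chosen after seeing the data, counting antigen receptor segments as genes left the count, density, width and spacing close to the reported values. No paired analysis was possible because the list gives no value per library. For the same reason depth is unknown, and intervals cover counting error only.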
